A study of Bos taurus with 24 samples.

Results

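The 24 testis libraries of the study were divided by the share of their reads that fell outside annotated exons, here called the outside share. It is the number of aligned reads assigned to no exon divided by the total of all rows of the library's count file. Within each diet, the 4 libraries of lowest share and the 4 of highest share were selected on this value, which placed all 24 libraries in a low group of 12 and a high group of 12. The groups are therefore not a treatment, and the outside share itself is given only as a description. The gene counts compared below come from reads inside exons. Their total is the largest part of the denominator of the share, so they are compared as levels relative to the other genes of a library.

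Testicular parenchyma was taken at 72 wk of age from Holstein bulls fed high (HD, 20.0% crude protein and 67.9% total digestible nutrients), medium (MD, the control, 17.0% and 66.0%) or low (LD, 12.2% and 62.9%) diets from 2 to 32 wk. There were 8 bulls per diet, each with 1 library, and all bulls were fed MD afterwards. Each sample is a piece of whole parenchyma, which holds germ cells, Sertoli cells, Leydig cells and other cells, so fewer cells of a type and less RNA per cell cannot be told apart.

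Reads outside annotated exons in a poly(A)-selected library can come from introns of precursor RNA not yet spliced, from transcripts or transcript ends missing from the annotation, or from DNA. Testis is known for transcribing an unusually broad part of the genome during spermatogenesis. The mitochondrial genome encodes a small set of respiratory chain proteins whose mRNAs have no introns and are abundant in cells of high energy use. COX1 and COX3 are core subunits of cytochrome c oxidase, ATP6 is a subunit of ATP synthase, and CYB is the cytochrome b subunit of complex III.

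In HD, the low libraries were those of bulls 8, 13, 7 and 10, with outside shares of 9.54, 10.5, 10.7 and 11.6%. The high HD libraries were those of bulls 11, 9, 12 and 14, with 12.4, 13.4, 14.9 and 15.6%. In MD, the low libraries of bulls 5, 18, 15 and 4 had 11.4, 11.8, 12.1 and 13.9%. The dividing line in each diet ran between neighbours, so bull 10 lay just below and bull 11 just above it in HD, and bull 4 just below and bull 16 just above it in MD. The high MD libraries of bulls 16, 17, 19 and 6 had 14.6, 14.6, 16.5 and 21.4%. In LD, the low libraries of bulls 2, 24, 21 and 20 had 10.3, 12.04, 12.3 and 12.4%. The high LD libraries of bulls 22, 23, 3 and 1 had 14.4, 14.5, 14.6 and 15.96%. Because the line was drawn within diets, the groups overlap across diets, and the low library of MD bull 4 had a higher share than the high libraries of HD bulls 11 and 9. The share was 15.2 ± 2.23% (SD, n = 12) in the high group and 11.6 ± 1.15% in the low group, and the widest Wilson 95% interval of a single library was ± 0.02 percentage points, which covers counting error only.

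**Figure D1:**
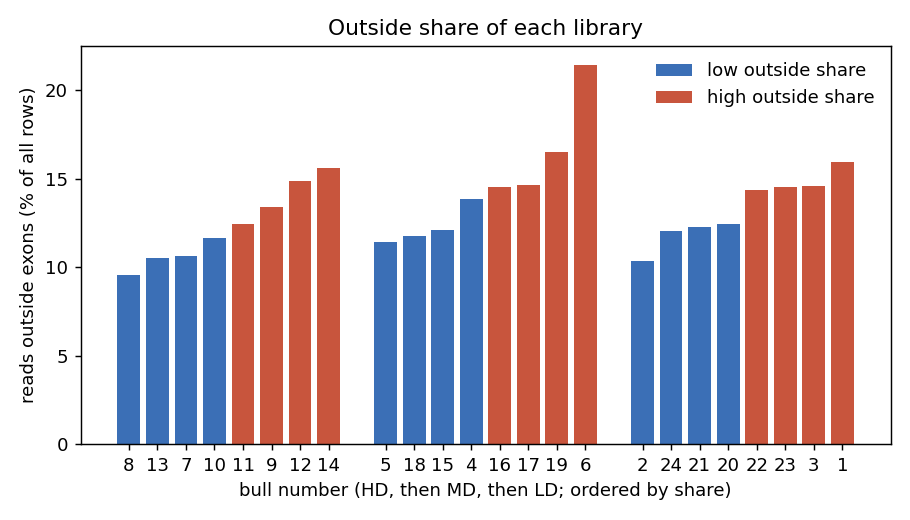
Bars give the reads outside exons as a percent of all rows of each library, ordered within diet and labelled by bull number, with low libraries in blue and high libraries in red. The HD shares run from 9.54 to 15.6%, the MD shares from 11.4 to 21.4% and the LD shares from 10.3 to 15.96%.

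Counts on genes ranged from 9163675 in the library of HD bull 14 to 21902110 in that of HD bull 11. This total was 14077000 ± 3427600 in the high and 14636000 ± 929170 in the low group, given without a test because it enters the outside share. The difference was -559120 counts, -1398400 without HD bull 11 and 16995 without HD bull 14, with -411970 for HD bulls, -2213500 for MD bulls and 948080 for LD bulls. Some libraries stood apart before any comparison. The libraries of HD bulls 12 and 8 had 32.8 and 24.7 low quality alignments per 100 counts on genes, against 8.38 to 14.9 in the other 22. The library of HD bull 14 was the smallest, and that of MD bull 6 had the highest outside share. RNA integrity values of the libraries were not used here, and the part of RNA quality in the results was not tested.

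The first question was whether the gene counts inside exons differed between libraries of high and low outside share from bulls of the same diet. Of 15183 features tested, 7133 (47%) were called at an adjusted P < 0.1 (edgeR quasi-likelihood test with diet as a block, Benjamini-Hochberg adjustment). Of these, 3891 were higher and 3242 lower in the high libraries, whereas 5387 were higher and 1972 lower when counts were scaled by library size only. The higher features had a median log2 fold change of 0.55, with 317 above 1, and the lower features a median of -0.44, with 38 below -1. The median over all features tested was 0.04, and 0.17 when scaled by library size only. Without the libraries of HD bulls 8 and 12, 6423 features were called, and without those of MD bull 6 and HD bull 14, 7378.

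The mitochondrially encoded features that could be named, COX1, the joined COX3 and ATP6 feature and CYB, were lower in the high libraries. COX1 (ENSBTAG00000043561) had 11720 ± 3600 CPM (counts scaled to library totals adjusted by TMM factors, SD, n = 12) in the high group and 30587 ± 14697 CPM in the low group, 2.55-fold lower in high. The log2 fold change was -1.35 (SE 0.18, adjusted P = 3.67e-05 in edgeR).

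In HD, the low libraries of bulls 8, 13, 7 and 10 had 58507, 39314, 51351 and 26296 CPM of COX1, and the high libraries of bulls 11, 9, 12 and 14 had 15746, 16044, 11841 and 15639. In LD, the low libraries of bulls 2, 24, 21 and 20 had 45345, 16938, 22508 and 21547 CPM, and the high libraries of bulls 22, 23, 3 and 1 had 12406, 15404, 11340 and 7168. In MD, the low libraries of bulls 5, 18, 15 and 4 had 28765, 22404, 23436 and 10630 CPM, and the high libraries of bulls 16, 17, 19 and 6 had 11024, 10095, 9095 and 4841. The groups were apart in HD and in LD. In MD they overlapped through bull 4, the low library nearest to the line.

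COX3 and ATP6 are counted in one joined feature that holds 3 gene identifiers, so their reads cannot be told apart. This feature had 10289 ± 3514 CPM in the high group (lowest 4135, median 9879, highest 14997) and 24239 ± 10287 CPM in the low group (8995, 21862 and 44408). It was lower in high by a log2 fold change of -1.23 (SE 0.17, adjusted P = 3.67e-05 in edgeR), with -1.32 in HD, -1.30 in MD and -1.07 in LD. CYB (ENSBTAG00000043550) had 3043 ± 946 CPM in the high group (1457, 2991 and 4684) and 7770 ± 3839 CPM in the low group (2820, 6785 and 16097). Its log2 fold change was -1.30 (SE 0.18, adjusted P = 3.67e-05 in edgeR), with -1.63 in HD, -1.38 in MD and -0.90 in LD. The ranges of both features overlapped over the 12 against 12 libraries.

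**Figure D2:**
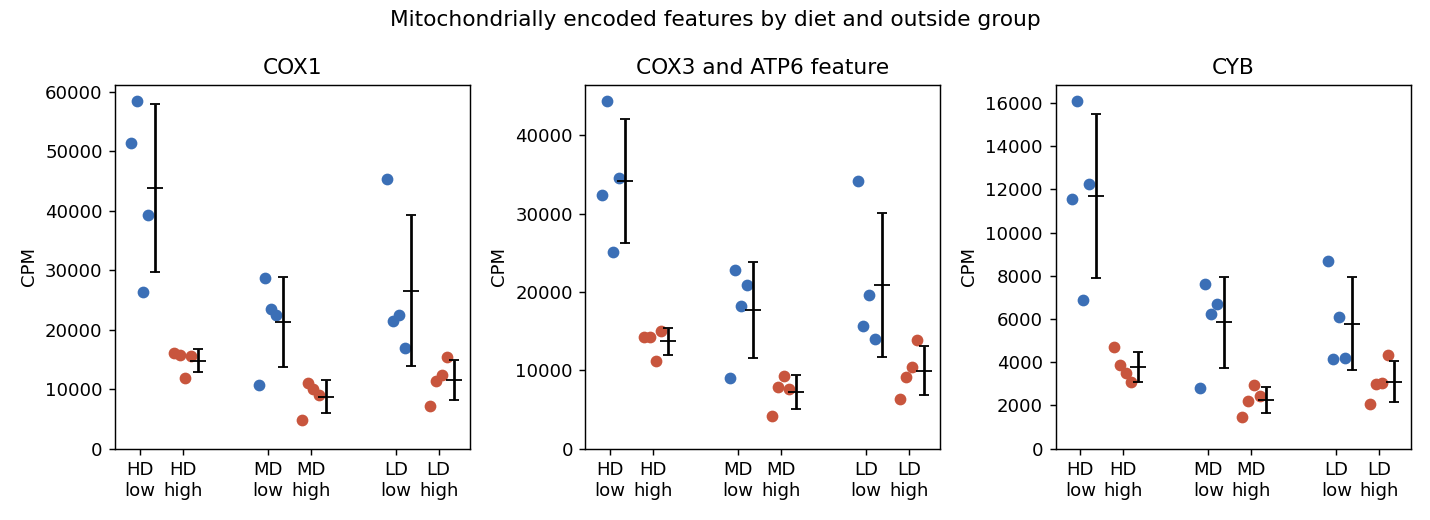
Points give the CPM of COX1, the joined COX3 and ATP6 feature, and CYB in each library, by diet and outside group, with the mean and SD of the 4 libraries in black. The COX1 mean is 43867 CPM in low and 14818 in high HD libraries, 21309 and 8764 in MD, and 26584 and 11579 in LD.

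COX1, the joined COX3 and ATP6 feature and CYB together took 2.58 ± 0.71% of the counts on genes in the high group and 5.84 ± 2.26% in the low group (exact permutation test within diets, two-sided, p = 3.5e-05). The same test gave 8.16e-05 when adjusted over the 7 library measures of how counts were spread inside exons. The counts behind these 7 measures are also part of the total that divides the outside share. The measures are therefore not independent of the grouping, and their p-values are to be read with that limit. The 10 most abundant features took 5.13 ± 1.20% in high and 8.99 ± 2.91% in low libraries (p = 2.33e-05, adjusted 8.16e-05, same exact permutation test), and were apart in HD and MD. After each library was thinned to 9163675 counts, 17519 ± 246 features were detected in high and 17131 ± 145 in low libraries. Counts were thus spread over more features in the high libraries at equal depth, with no overlap between the groups within any of the 3 diets (p = 5.83e-06, the smallest that 343000 regroupings can give, adjusted 4.08e-05, exact permutation test). By diet, the high libraries had 352 more features in HD, 457 more in MD and 355 more in LD.

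**Figure D3:**
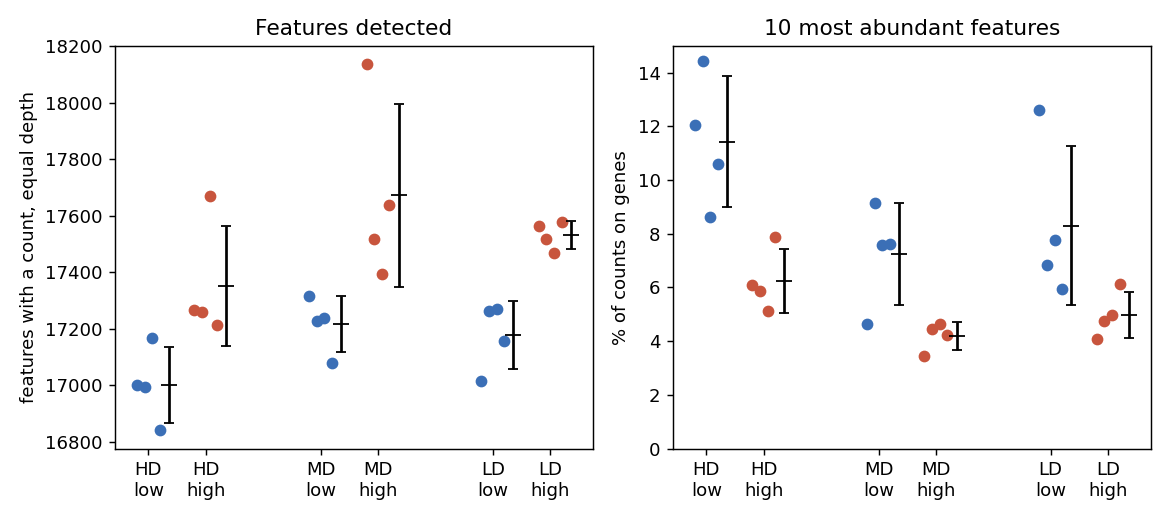
Points give, for each library, the features with at least 1 count after thinning to equal depth (left) and the percent of counts on the 10 most abundant features (right), with the mean and SD of the 4 libraries in black. Features detected run from 17214 to 18137 in high and from 16840 to 17317 in low libraries.

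Beside the mitochondrial features, the features of smallest p in each direction are given by identifier, since the files pair identifiers with no symbol. ENSBTAG00000026638, with 9 exon bins, had 3.996 ± 2.56 CPM in high (lowest 2.06, median 3.20, highest 11.6) and 0.867 ± 0.689 CPM in low libraries (0.192, 0.651 and 2.76). Its log2 fold change was 2.23 (SE 0.26, adjusted P = 1.87e-05 in edgeR), and the groups were apart within each diet. Of the 15183 features tested, 176 were apart in this way and higher, and 156 apart and lower. The feature was chosen for its small p, and its low libraries held few reads, with 3 counts in that of HD bull 10. ENSBTAG00000020214, with 2 bins, had 258 ± 51.5 CPM in high (172, 266 and 343) and 130 ± 38.4 CPM in low libraries (70.1, 118 and 193), a log2 fold change of 1.02 (SE 0.12).

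Among the features that fell, ENSBTAG00000007454, with 6 bins, had 112 ± 30.5 CPM in high (67.1, 111 and 183) and 241 ± 77.1 CPM in low libraries (107, 222 and 388), and its log2 fold change was -1.08 (SE 0.12, adjusted P = 1.87e-05 in edgeR). ENSBTAG00000046394, with 5 bins, had 210 ± 51.9 CPM in high (124, 205 and 310) and 432 ± 157 CPM in low libraries (197, 401 and 771), a log2 fold change of -1.01 (SE 0.12).

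The next question was whether the diets showed the difference alike. With 4 against 4 libraries in one fit of 6 cells, 5498 of 15419 features (35.7%) were called within HD, 3250 of them higher, and 1501 (9.73%) within MD, 752 of them higher. Within LD, 0 (0%) were called in edgeR, while 2496 had an unadjusted p under 0.05, and the smallest adjusted P was 0.133. COX1 had log2 fold changes of -1.57 in HD (adjusted P = 0.00207), -1.28 in MD (0.0511) and -1.20 in LD (0.165; all edgeR), and its interaction with diet had an adjusted P of 0.96. The MD count rested on single libraries, since 0 features were called without MD bull 5, 6 or 18, 487 without MD bull 15, 937 without MD bull 16, 2698 without MD bull 4 and 2722 without HD bull 14. Within LD, 775 features were called without HD bull 14, 21 without MD bull 4, 2 without MD bull 16 and 1 each without MD bull 5, HD bull 13 or LD bull 24.

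Differing counts of calls do not show that the diets differed. The interaction of diet and outside group was called for 1 of 15419 features (0.00649%), and 1205 had an unadjusted p under 0.05. The count was 481 without HD bull 10, 3 without MD bull 5, 2 without HD bull 9 and 0 without HD bull 8, 12 or 13. The called feature, ENSBTAG00000019332, was named after its values were seen. Its log2 fold change in HD was 1.76, while it was -0.24 for MD and -0.08 for LD, with an adjusted P of 0.0268 for the interaction in edgeR.

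Signs were then compared between diets. Of the 7133 called features, 6896 (96.7%) had the same sign in the 3 diets, against 9399 of the 15183 tested (61.9%), and the calls used those same libraries. To keep the libraries apart, features were called in 2 diets and their sign was read in the third. With HD left out, 5632 of 6293 called features (89.5%) had the same sign in HD, against 74.9% of all features tested. With MD left out the share was 95.3% against 77.5%, and with LD left out 95.4% against 78.5%.

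A score was also given to each library of the left-out diet, the mean log2 level of the features called higher in the other diets minus that of the features called lower. In HD it ran from -2.72 to -1.96 in low and from -1.58 to -1.17 in high libraries. In MD it ran from -1.52 to -0.66 in low and from -0.59 to 0.09 in high libraries. In LD it ran from -1.82 to -1.27 in low and from -1.01 to -0.44 in high libraries. The groups did not overlap in any of the 3 diets, and the nearest were MD bull 4 among the low and MD bull 17 among the high libraries.

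**Figure D4:**
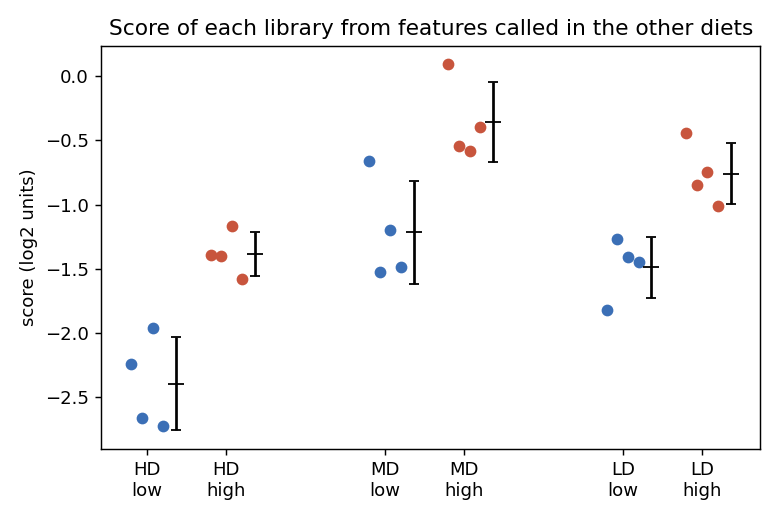
Points give the score of each library, in log2 units, from features called in the other diets, with the mean and SD of the 4 libraries in black. High libraries lie above low libraries in each diet, from -1.58 to -1.17 against -2.72 to -1.96 in HD.

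The features were further grouped by the number of exon bins, the non-overlapping exon pieces in which reads were counted. Features with many bins were more often higher in the high libraries. The median log2 fold change was -0.04 for the 651 features with 1 bin, -0.04 for 2 to 5 bins, -0.03 for 6 to 10 bins, 0.08 for 11 to 20 bins, 0.21 for 21 to 49 bins and 0.32 for the 177 features with 50 or more bins. In that last class 49.7% of the features were called higher and 6.78% lower, beside 25.6% and 21.4% of all features tested. Among features with 1 bin, 16.4% were called higher and 20.3% lower.

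Abundant features were more often lower in the high libraries. The median log2 fold change was 0.16 for features under 1 CPM, 0.13 for 1 to 10 CPM, 0.02 for 10 to 100 CPM, -0.12 for 100 to 1000 CPM and -0.24 for the 67 features over 1000 CPM, of which 6 (8.96%) were called higher and 30 (44.8%) lower, beside 25.6% and 21.4% of all features tested. The order by bins was the same within the level classes under 1 CPM (no features with 50 or more bins are given there), 1 to 10 CPM and 10 to 100 CPM, and not within 100 to 1000 CPM. Between 1 and 10 CPM, the median went from -0.01 for 1 bin to 0.49 for 50 or more bins, and between 10 and 100 CPM from -0.09 to 0.40. Between 100 and 1000 CPM, it was -0.07 for 1 bin, -0.22 for 2 to 5 bins, -0.22 for 6 to 10 bins, -0.09 for 11 to 20 bins, 0.03 for 21 to 49 bins and 0.17 for 50 or more bins, so features with 1 bin lay above the next 3 classes. These are descriptions across features, which are not independent replicates, and class medians are to be read against that of all features, which depends on the scaling.

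**Figure D5:**
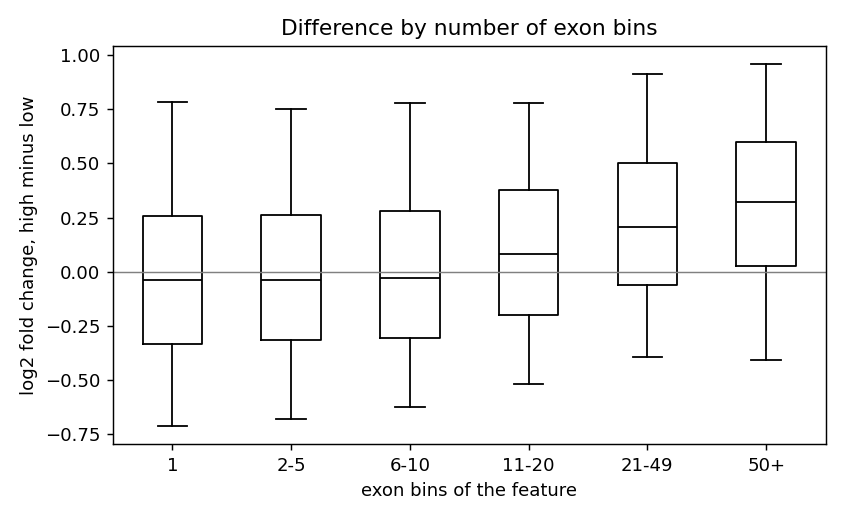
Boxes give the log2 fold change, high minus low outside share, of the 15183 features by their number of exon bins, with the median as a line, the quartiles as the box and the 5th and 95th percentiles as whiskers. The median is -0.04 for 1 bin and 0.32 for 50 or more bins.

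Other measures of the libraries were also compared. Features with 1 bin, leaving out COX1 and CYB, took 3.67 ± 1.00% of counts in high and 4.72 ± 0.81% in low libraries (exact permutation p = 0.00328, adjusted 0.00573). Features with 50 or more bins took 1.87 ± 0.37% and 1.62 ± 0.26% (exact permutation p = 0.0593, adjusted 0.0691), and the p was 0.000706 without the library of HD bull 14, 0.0277 without HD bull 8, 0.0415 without MD bull 16, 0.0495 without MD bull 4 and 0.0498 without LD bull 21. Reads that fell on more than one feature numbered 0.280 ± 0.048 per 100 counts in high and 0.355 ± 0.052 in low libraries. Low quality alignments numbered 11.4 ± 6.93 and 12.8 ± 4.24 per 100 counts, with differences of 1.34 for HD, -1.64 for MD and -3.75 for LD bulls. Both are given without a test, since these reads enter the denominator of the outside share. A coverage index, the log2 ratio of counts on the last and first bins of a feature oriented by their coverage, was 0.95 ± 0.08 in high and 1.01 ± 0.16 in low libraries over 9106 features (exact permutation p = 0.299). The difference of -0.06 was -0.02 without HD bull 13, with -0.09 for HD bulls, 0.025 for MD bulls and -0.10 for LD bulls. Bins holding under 5% of the counts of the most covered bin of their feature took 0.515 ± 0.076% and 0.456 ± 0.066% (exact permutation p = 0.0364, adjusted 0.0509), a measure added after the data were seen. Its p passed 0.05 when HD bull 9, 10, 11, 12 or 13, MD bull 6, 18 or 19, or LD bull 24 was left out, and reached 0.096 without HD bull 13.

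The use of single exon bins relative to the rest of their feature was called different for few features. With limma (voom and diffSplice), 84 of 10808 features (0.777%) were called, and 279 had an unadjusted p under 0.05. That is a smaller share than the 0.05 that an accurate test gives where nothing differs. The test was thus conservative here, and the few calls do not show that bin use was alike. With bins of at least 30 counts, 41 features were called. Among 103751 bins, 89 were called, 50 of higher and 39 of lower use in the high libraries, with a median absolute log2 difference of 0.82. Of the 84 features, 46 (54.8%) were also called in the gene counts, which is 0.827% of the features called there that could be tested for bin use. Of the 10808 features tested in both, 5560 (51.4%) were called in the gene counts.

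Diets were last compared with the outside group in the fit. HD and MD then differed in 4556 of 15183 features (30%), 2242 of them higher in HD, and HD and LD in 2142 (14.1%), 1170 of them higher in HD. MD and LD differed in 0 features (0%) in edgeR, with 311 at an unadjusted p under 0.05. Without the outside group in the fit, the counts were 2116, 0 and 0. The count for HD against LD fell to 472 without HD bull 13, 779 without LD bull 21, 912 without LD bull 1, 1188 without HD bull 8, 1312 without LD bull 20 and 1423 without LD bull 22. The groups are balanced over diets, so this term does not take out the difference in mean outside share between HD (12.3%), MD (14.5%) and LD (13.3%). With each library's outside share as a number in its place, 1, 0 and 0 features were called, an alternative added after the data were seen.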

How the data were processed

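The authors sequenced poly(A)-selected, strand-marked libraries of 24 bulls as single-end reads and mapped them to UMD3.1 with TopHat 2.0.10 and Bowtie 1.1.2. The deposited files hold raw counts of reads for each exon bin, and further rows count reads that hit no exon, ambiguous reads and low quality alignments. The authors name featureCounts for counts of reads per gene, and the deposited files are labelled as DEXSeq counts, but the script and settings that counted the bins are not given in the sources used here. Bins were summed per gene identifier, or per joined set where genes overlap (87 of 24525 features). CPM was computed from these counts with TMM factors. Rows that name no gene entered no library size or test.

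Gene counts were tested with edgeR 4.0.16 (quasi-likelihood, filterByExpr, TMM) with diet as a block, bin use with limma 3.58.1 (bins with a mean of at least 10 counts), and library measures with exact permutation tests within diets. For counts on genes, ambiguous reads and low quality alignments, whose totals enter the outside share directly, the tests are not reported here. The other library measures describe how counts inside exons were spread, and those counts also enter the denominator of the share. The SE of a log2 fold change is not an edgeR output. It was derived as the absolute log2 fold change divided by the square root of the F statistic. DESeq2 1.42.0 was an alternative. Features were called at an adjusted P of 0.1, and the exact permutation tests were read at 0.05. The methods were also run on simulated data in which features and libraries varied independently. Those runs do not cover shifts shared by many features, as seen here. The 84 pairs of libraries within diets differed beyond sampling noise (lowest chi-square per degree of freedom 10.7), and each library came from another bull.

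The libraries, lists and comparisons were chosen with earlier results of these data known. Named were COX1, COX3, ATP6 and CYB, which the study pairs with identifiers, and the 2 features of smallest p in each direction. Lists of genes and cell type markers were planned but not applied, as the identifiers could not be matched to symbols, and the tissue was therefore not checked against its markers.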

Additional observations from a re-analysis of the deposited data

Results flagged for a closer look

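In 102 groups of 4 libraries (library measures and named features by diet and outside group), 10 held a library far from the other 3, where chance gives about 5.1. The library of HD bull 14, in the high group, accounted for 4 of these. It had 0.421 ambiguous reads per 100 counts (next 0.292), 6.66% of counts on features with 1 bin other than COX1 and CYB (next 3.90%), 0.768% on features with 50 or more bins (next 1.89%) and 0.303% on little covered bins (next 0.484%). The library of LD bull 2, in the low group, had 0.379 ambiguous reads per 100 counts (next 0.332) and 5.74% of counts on those features with 1 bin (next 4.28%). The library of HD bull 12 had 17669 features detected after thinning (next 17267) and 11841 CPM of COX1 (next 15639). The library of MD bull 6 had 11.6 CPM of ENSBTAG00000026638 (next 4.49), and that of MD bull 17 had 8.58 low quality alignments per 100 counts (next 9.39).

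ENSBTAG00000019332 differed between diets in its contrast of high and low libraries, with an adjusted P of 0.0268 for the interaction in edgeR. Its log2 fold change over all libraries was 0.45 (SE 0.22, adjusted P = 0.113).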

How the results depend on the processing

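Under 22 alternatives (normalization, filter, threshold, DESeq2, equal depth, other divisions of the libraries and libraries left out by diet), 5035 to 7960 features were called for high against low outside share, and 6604 to 7877 with single libraries left out. One division, by the share without low quality and ambiguous reads, placed all 24 libraries in the same groups and so could not differ. Leaving out HD bulls 8 and 12, or MD bull 6 and HD bull 14, was chosen after the data were seen. COX1, the joined COX3 and ATP6 feature, CYB and the 4 features given by identifier kept their sign and their call under each alternative that gave them a value. Scaled by library size only, the median of all features moved to 0.17, 73.2% of the called features were higher and 1972 were lower. The diet comparisons depended on the fit, with 2116 (HD against MD) and 0 (HD against LD) calls without the outside group and 1 and 0 with the share as a number. With bins of at least 30 counts, bin use was called for 41 features. With the 3 lowest against the 3 highest libraries per diet, little covered bins differed by 0.0543 percentage points (exact permutation p = 0.131).

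Leaving out single libraries gave 472 (without HD bull 13) to 3063 (without HD bull 10) calls for HD against LD, 0 to 481 (without HD bull 10) for the interaction, 0 to 775 (without HD bull 14) within LD and 0 to 2722 within MD. The differences between groups ran from -3.18 (without HD bull 12) to -0.269 (without HD bull 8) low quality alignments per 100 counts, from 0.190 (without HD bull 13) to 0.340 (without HD bull 14) percentage points for features with 50 or more bins, and from 0.0452 to 0.0748 for little covered bins (without the same bulls). The cause of these shifts was not tested. With 4 libraries per group within a diet, and 9163675 counts in the smallest library, low features were measured with the least precision.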
